A study of Mus musculus with 6 samples.

Results

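Matrix metalloproteinases (MMPs) and their tissue inhibitors (TIMPs) were examined after silencing of Ep300 in RAW264.7, an established macrophage-like line of the mouse. Ep300 encodes p300, a lysine acetyltransferase that serves as a transcriptional coactivator. The 9 genes Mmp12, Mmp9, Mmp13, Mmp14, Mmp8, Mmp19, Timp1, Timp2 and Timp3 were taken by symbol from a table of raw read counts with 49492 rows, and all 9 were found. They were brought together because Mmp12 and Mmp9 were strongly lower in this same comparison, so the differences of these genes between the groups are given as a description, with an interval and no p-value.

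The Ep300 siRNA group (genotype label "Ep300 silenced") held 3 libraries and the control siRNA group (nc_siRNA, genotype label "WT") held 3. All cultures were RAW264.7 given an siRNA at 50 nM for 48 h with 1 kind of transfection kit. Each sample is a bulk population, so fewer expressing cells and less RNA per cell cannot be told apart. Whether replicates were separate cultures is not stated in the labels, so p-values measure the spread between these libraries, which may be technical.

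MMPs are secreted or membrane-bound zinc proteases, made as inactive proenzymes, that cut extracellular matrix and also cytokines, chemokines and surface proteins. TIMPs are small secreted proteins that bind the active site of MMPs and block them, so the balance of MMPs and TIMPs helps to set how much matrix is cut. Macrophages are a main source of Mmp12, the macrophage elastase, and of Mmp9, a gelatinase that osteoclasts, which RAW264.7 cells can become, also make.

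Total counts ranged from 29993567 to 45377510 per library. Ep300 itself was at 51.1, 59.0 and 55.0 CPM (counts per 1000000 reads of the scaled library size) in the Ep300 siRNA libraries, against 106.8, 115.3 and 118.4 CPM in the control libraries. Its level after Ep300 siRNA was 0.485 of that in controls, a fall that passed the test (edgeR adjusted p = 3.62e-05; log2 fold change −1.04 ± 0.07, SE). Ep300 siRNA replicate 1 stood apart in Gm42418, a gene overlapping ribosomal RNA sequence, with 5823 CPM where the other 5 libraries held 1327 to 2174 CPM. Without it the log2 fold changes were −1.30 for Mmp12, −1.26 for Mmp9, −0.62 for Mmp19 and −0.31 for Timp2. The 8 macrophage markers summed to 10600 to 11500 CPM after Ep300 siRNA and 9360 to 11000 CPM after control siRNA, and Lyz2 made up most of each sum (8263 ± 406 CPM after Ep300 siRNA and 7471 ± 751 CPM after control siRNA; SD, n = 3 each). Of the others, Csf1r (log2 fold change −0.23 ± 0.07, SE; edgeR adjusted p = 0.0666), Adgre1 (−0.23 ± 0.07, SE; edgeR adjusted p = 0.0855) and Fcgr1 (−0.36 ± 0.15, SE; edgeR adjusted p = 0.191) went the other way from the sum without passing. Cd68 (log2 fold change 0.13 ± 0.07, SE), Ptprc (0.09 ± 0.07, SE) and Itgam (0.06 ± 0.11, SE) were higher, also without passing. Mertk was too low to test. The 8 neutrophil markers summed to at most 0.341 CPM after Ep300 siRNA and 0.367 CPM after control siRNA, with Ly6g and Ngp at 0 in every library. Fibroblast markers (7 genes) summed to at most 0.981 CPM after Ep300 siRNA and 1.14 CPM after control siRNA. Epithelial, endothelial, mast cell and lymphocyte markers summed to at most 0.891 CPM after Ep300 siRNA and 1.1 CPM after control siRNA in each list.

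Mmp12 lies on GRCm38 chromosome 9 (7344381 to 7369499, plus strand) inside a run of 10 MMP genes that spans 427 kb. No promoter sequence was at hand for Mmp9 or Mmp19, so neither was searched for motifs. RefSeq (GRCm38.p6) gives promoter sequence for the other 7 of the 9 genes, from 250 bases before to 50 after a start. Those of Mmp12 are shown because it had the largest difference, that of Mmp13 because it is the nearest upstream MMP gene of the cluster and was nearly silent, and that of Timp2 because it was expressed at a similar level in both groups. Capitals mark matches on either strand. The AP-1 motif searched was TGANTCA. The ETS motif searched was GAGGAA, and other forms of ETS site were not counted. The TATA motif searched was TATAAA. These motifs do not overlap one another in the sequences shown. Mmp12 has an upstream start (chr9:7344147-7344446, plus strand), a downstream start (chr9:7347124-7347423, plus strand), and the windows of Mmp13 (chr9:7272264-7272563, plus strand) and Timp2 (chr11:118355362-118355661, minus strand) follow them.
Mmp12 upstream start: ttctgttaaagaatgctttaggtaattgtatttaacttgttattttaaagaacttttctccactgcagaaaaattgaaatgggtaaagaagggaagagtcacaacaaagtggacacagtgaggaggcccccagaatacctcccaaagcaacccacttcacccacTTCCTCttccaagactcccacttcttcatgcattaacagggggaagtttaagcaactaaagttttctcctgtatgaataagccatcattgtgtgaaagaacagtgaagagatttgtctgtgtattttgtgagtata
Mmp12 downstream start: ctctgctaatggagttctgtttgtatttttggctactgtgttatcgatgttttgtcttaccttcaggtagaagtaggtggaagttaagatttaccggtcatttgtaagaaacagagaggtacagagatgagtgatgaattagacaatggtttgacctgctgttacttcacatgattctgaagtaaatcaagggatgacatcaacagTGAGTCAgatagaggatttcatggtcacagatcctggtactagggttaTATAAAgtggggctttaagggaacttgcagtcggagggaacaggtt
Mmp13: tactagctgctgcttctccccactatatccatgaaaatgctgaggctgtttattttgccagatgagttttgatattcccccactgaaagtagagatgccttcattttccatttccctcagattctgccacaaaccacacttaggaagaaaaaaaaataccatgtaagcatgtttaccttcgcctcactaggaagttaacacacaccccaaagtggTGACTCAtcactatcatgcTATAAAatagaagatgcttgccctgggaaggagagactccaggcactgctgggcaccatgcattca
Timp2: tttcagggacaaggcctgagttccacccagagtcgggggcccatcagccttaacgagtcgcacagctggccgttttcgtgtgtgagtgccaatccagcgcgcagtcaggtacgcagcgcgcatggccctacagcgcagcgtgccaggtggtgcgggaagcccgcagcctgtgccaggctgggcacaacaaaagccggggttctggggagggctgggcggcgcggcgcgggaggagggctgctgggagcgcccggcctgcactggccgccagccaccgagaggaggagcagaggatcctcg

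The downstream Mmp12 window held an AP-1 match from −44 to −38 and a TATA match from 5 to 10, counted from the start as base 1, with no base 0. The upstream Mmp12 window held neither of these, and 1 ETS match from −86 to −81 on the antisense strand. Mmp13 held an AP-1 match from −35 to −29 and a TATA match from −16 to −11. The Timp2 window held none of the 3 motifs. Among the 10 MMP genes of the chromosome 9 cluster, 8 held an AP-1 match, 9 a TATA match and 4 an ETS match in at least 1 window. Among 32851 promoter windows of all genes, 7.81% held the AP-1 motif, 13.6% the TATA motif and 28.3% the ETS motif. Of 12 MMP and TIMP genes outside the cluster that had a window, 0 held the AP-1 motif, 1 the TATA motif and 1 the ETS motif. Only exact matches were searched, so these counts do not show that near matches were absent. The Timp1 window held TGAGTAA, a near match to the AP-1 motif, which was not counted. The cluster genes are related by sequence, so their matches are not independent of each other, and a match is not a measured binding site.

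Of that cluster only Mmp12 passed the filter on low counts. Mmp12 held 4003 reads over the 6 libraries. None of the other 9 MMP genes of the cluster exceeded 8 reads in any library. Mmp8, a collagenase best known from neutrophils, held 30 reads in all, Mmp13, a collagenase of cartilage and bone, held 8, and Mmp1b, Mmp20 and Mmp27 held 2 each. Mmp3, Mmp1a, Mmp10 and Mmp7 held none, which allows up to 3 reads per library if each read was counted on its own. Most low counts were even (79.8% to 80.9% of counts from 1 to 4), so this bound may be too low. The nearest upstream protein-coding gene outside the cluster was Dcun1d5. It was at 131.9 ± 42.4 CPM after Ep300 siRNA and 94.9 ± 33.5 CPM after control siRNA (SD, n = 3 each) and was not past the threshold (edgeR adjusted p = 0.298).

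**Figure D1:**
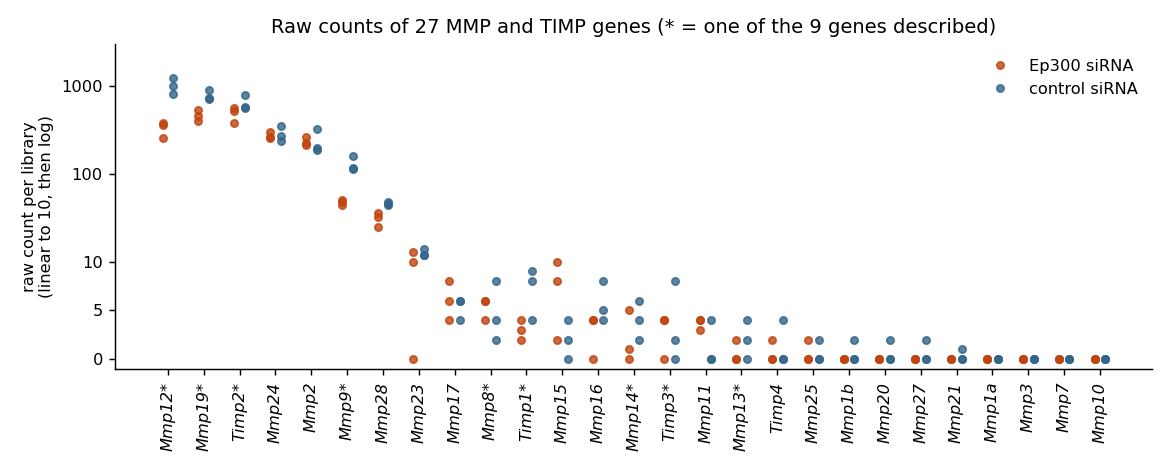
Raw counts per library (vertical axis, linear to 10 and logarithmic above) of 27 MMP and TIMP genes, ordered by total count; orange points are the 3 Ep300 siRNA libraries and blue points the 3 control siRNA libraries, and asterisks mark the 9 genes described. Of the 9, Mmp12, Mmp19, Timp2 and Mmp9 stand above the others, which never exceeded 9 reads.

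Of the 9 genes, 4 passed the filter on low counts (Mmp12, Mmp9, Mmp19 and Timp2), each with reads in all 6 libraries. The other 5 never exceeded 9 reads in a library. Among the 4, 3 passed edgeR's adjusted p under 0.05, all lower after Ep300 siRNA. Of all 15741 genes tested, 6.78% passed in either direction, 4.02% lower and 2.76% higher. Because the genes were chosen on this comparison, nothing is read from that count. The 4 genes had a median log2 fold change of −0.88, beside −0.004 over all genes tested. This median holds Mmp12 and Mmp9, chosen for their falls, so nothing is read from it either.

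Among the secreted proteases, Mmp12 cuts elastin and other matrix proteins. Mmp12 was at 8.73, 10.3 and 10.1 CPM after Ep300 siRNA, against 26.4, 27.6 and 22.0 CPM after control siRNA. The groups did not overlap, and the highest Ep300 siRNA library stayed under the lowest control library. Means were 9.71 ± 0.852 CPM after Ep300 siRNA and 25.3 ± 2.92 CPM after control siRNA (SD, n = 3 each). Its log2 fold change stood at −1.38 ± 0.10 (SE; 95% interval −1.61 to −1.15), which is 0.384 of the control level (95% interval 0.328 to 0.45). Of 15741 genes ordered from the lowest log2 fold change, Mmp12 was at place 37. The 3′ end of Mmp12 overlaps exons of Mmp1b on the other strand, which held 2 reads in all.

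Mmp9, or gelatinase B (chromosome 2, 164940780 to 164955850, plus strand), cuts denatured collagen and collagen of basement membranes. It was rarer, at 1.501, 1.39 and 1.35 CPM after Ep300 siRNA, against 2.42, 3.23 and 4.32 CPM after control siRNA. In raw reads these were 44, 48 and 50 after Ep300 siRNA and 112, 116 and 158 after control siRNA. The Ep300 siRNA libraries lay close together and below all 3 controls, while the controls were spread widely. On the log2 scale Mmp9 was at −1.23 ± 0.23 (SE; 95% interval −1.73 to −0.73), or at 0.427 of the control level (95% interval 0.301 to 0.604). It was −0.99 without control siRNA replicate 3, the library with the highest Mmp9, and −1.42 without control siRNA replicate 1, the control library with the lowest.

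Mmp19 (chromosome 10, 128790910 to 128800824, plus strand) encodes a secreted MMP that cuts components of basement membranes. It was at 15.7, 11.5 and 14.2 CPM after Ep300 siRNA, against 19.6, 19.6 and 20.2 CPM after control siRNA. The groups did not overlap, and the difference was smaller than those of Mmp12 and Mmp9, at a log2 fold change of −0.53 ± 0.10 (SE, 95% interval −0.76 to −0.30) or 0.695 of the control level. Its call was lost without control siRNA replicate 2, at a log2 fold change of −0.52. The groups did not overlap for 3 of the 4 genes that passed the filter, and this was so for 27.5% of all genes tested. Exons of Tmem198b and of Gm47093, both on the other strand, overlap Mmp19, which lies wholly within Gm47093. The library kit keeps strand per the labels, but whether counting used it is not stated, so reads of these genes may be mixed where they overlap. Tmem198b was at 6.20 ± 0.544 CPM after Ep300 siRNA and 6.54 ± 1.21 CPM after control siRNA (SD, n = 3 each).

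**Figure D2:**
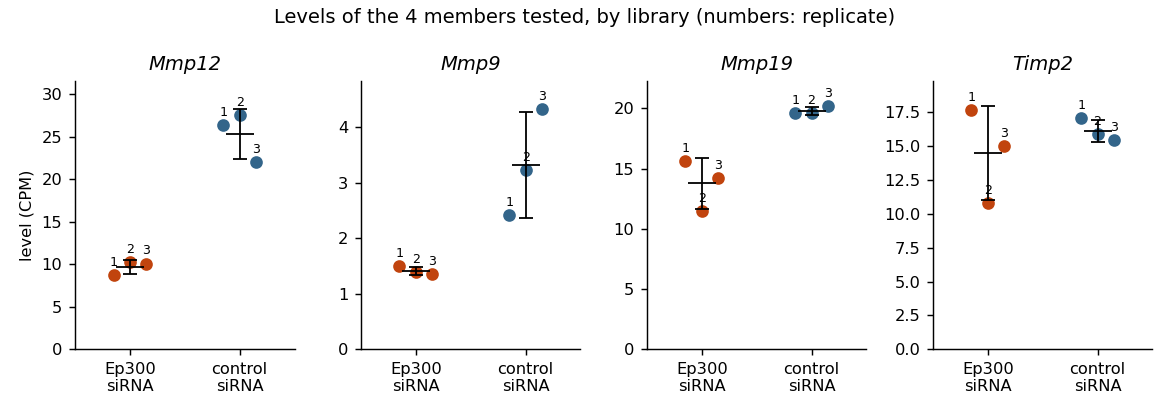
Levels in CPM (vertical axes, each from 0) of Mmp12, Mmp9, Mmp19 and Timp2 in the 3 Ep300 siRNA libraries (orange, left) and the 3 control siRNA libraries (blue, right); numbers are replicates, and bars give the mean and SD. The groups do not overlap for Mmp12, Mmp9 and Mmp19, and they overlap for Timp2.

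Timp2 (chromosome 11, 118301069 to 118355740, minus strand) was the main inhibitor. Its protein blocks most MMPs and, at the cell surface, also takes part in the activation of pro-Mmp2 by Mmp14. Timp2 was at 17.7, 10.8 and 14.99 CPM after Ep300 siRNA, against 17.0, 15.8 and 15.4 CPM after control siRNA. The groups overlapped: Ep300 siRNA replicate 1 was above every control and replicates 2 and 3 were below. The difference on the log2 scale was −0.16 ± 0.14 (SE), with a 95% interval of −0.47 to 0.16 that allows a level between 0.722 and 1.11 of control. It was 0.02 without Ep300 siRNA replicate 2. Among the Ep300 siRNA libraries, Mmp19 and Timp2 were both highest in replicate 1 and both lowest in replicate 2, whereas Mmp12 was lowest in replicate 1.

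The remaining inhibitors were near the detection limit. Timp1, which is often induced in activated macrophages, held 4, 3 and 2 reads after Ep300 siRNA, against 9, 4 and 8 reads after control siRNA. Timp3, an inhibitor bound to the matrix, held 4, 4 and 0 reads after Ep300 siRNA, against 8, 0 and 2 reads after control siRNA. At this depth no difference could be shown for either. Timp1 lies within an intron of Syn1, which runs on the opposite strand, and Timp3 lies within Syn3, also on the opposite strand. Syn1, a synapsin best known from neurons, held more reads than Timp1, at 37, 56 and 57 after Ep300 siRNA and 123, 95 and 84 after control siRNA. Syn1 fell to 0.583 of the level in controls (edgeR adjusted p = 0.0304; log2 fold change −0.78 ± 0.19, SE). This call was lost in all 6 fits that left out 1 library (adjusted p up to 0.102). No exon of Timp1 overlaps one of Syn1 in the annotation. Syn3 held 8, 5 and 0 reads after Ep300 siRNA and 4, 4 and 3 reads after control siRNA, and its exons do overlap those of Timp3. Gm47093, antisense to Mmp19, and Cep295nl, which lies within Timp2 on the same strand, had no deposited counts under these symbols and could not be analysed.

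Among the other proteases of the 9 genes, Mmp14, the membrane-type MMP that activates pro-Mmp2, held 1, 0 and 5 reads after Ep300 siRNA and 2, 6 and 4 reads after control siRNA. Mmp8 held 4, 6 and 6 reads after Ep300 siRNA and 2, 8 and 4 reads after control siRNA. Mmp13 held 0, 0 and 2 reads after Ep300 siRNA and 2, 0 and 4 reads after control siRNA. These levels overlapped between the groups, and a difference was not detectable at this depth.

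**Figure D3:**
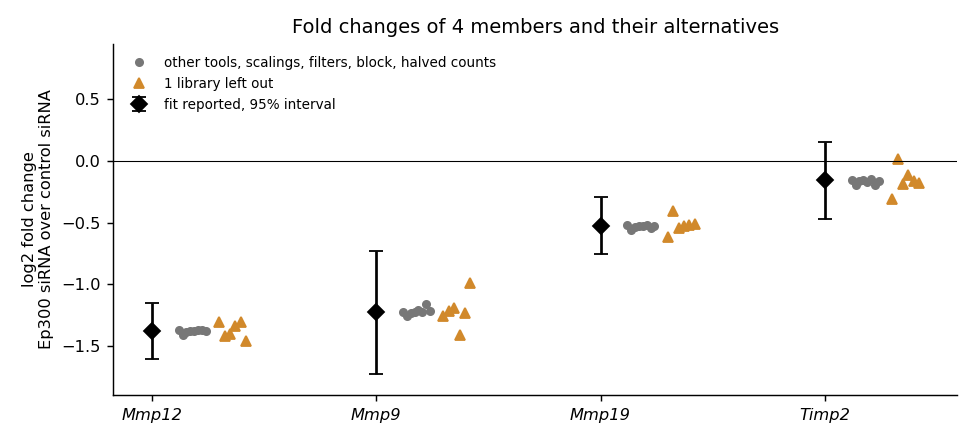
Log2 fold changes (vertical axis, Ep300 siRNA over control siRNA) of 4 genes: black diamonds with 95% intervals are the reported fit, grey points other tools, scalings, filters, the replicate block and halved counts, and orange triangles the fits with 1 library left out. Mmp12 and Mmp9 stay below −0.9 in every setting run, and Timp2 crosses 0 without Ep300 siRNA replicate 2.

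The MMP and TIMP genes outside the 9 were compared as the nearest relatives. Of 18 such genes, 4 passed the filter (Mmp2, Mmp24, Mmp28 and Mmp23). By edgeR's adjusted p 0 passed, as by DESeq2 and by limma-voom, and 0 had an unadjusted p under 0.05. Mmp2, or gelatinase A, was at 7.23, 6.43 and 7.10 CPM after Ep300 siRNA and 6.98, 5.24 and 5.31 CPM after control siRNA. Its difference of 0.24 ± 0.14 on the log2 scale was not past the threshold (SE; 95% interval −0.06 to 0.53; edgeR adjusted p = 0.34). Mmp24, a membrane-type MMP, had a log2 fold change of 0.16 ± 0.11 (SE, 95% interval −0.08 to 0.40; edgeR adjusted p = 0.435). Mmp28 (log2 fold change −0.32 ± 0.28, SE) and Mmp23 (−0.52 ± 0.64, SE) were rare. Mmp23 held 0, 10 and 13 reads after Ep300 siRNA and 14, 12 and 12 reads after control siRNA. With that empty library, Ep300 siRNA replicate 1, left out, Mmp23 had a log2 fold change of 0.01.

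Levels of different genes were compared as CPM per kb of the longest principal transcript. After Ep300 siRNA, Mmp19 led with 4.05 ± 0.623, then Timp2 with 3.90 ± 0.935, Mmp12 with 2.69 ± 0.236, Mmp2 with 2.25 ± 0.139, Mmp24 with 1.88 ± 0.128 and Mmp9 with 0.445 ± 0.0249 (SD, n = 3). After control siRNA, the order was Mmp12 with 7.02 ± 0.808, Mmp19 with 5.82 ± 0.0953, Timp2 with 4.34 ± 0.222, Mmp2 with 1.90 ± 0.319, Mmp24 with 1.68 ± 0.128 and Mmp9 with 1.05 ± 0.301. Mmp19 and Timp2 after Ep300 siRNA, and Mmp2 and Mmp24 after control siRNA, lay within the sum of their SDs. The order depends on the length used. With the union of all annotated exons, Mmp12 was at 3.50 per kb in the control libraries and lay below Mmp19, at 5.6, and Timp2, at 4.13.

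Shares of the MMP transcripts were set side by side. Per kb of principal transcript, Mmp12 made up 19.1%, 25.3% and 22.8% of all MMP transcripts after Ep300 siRNA, against 39.4%, 40.7% and 34.3% after control siRNA. Mmp2 made up 18.6%, 18.5% and 18.8% after Ep300 siRNA, against 12.2%, 9.07% and 9.69% after control siRNA. The share of Mmp19 overlapped between the groups, at 36.4%, 29.8% and 33.9% after Ep300 siRNA and 31.0%, 30.7% and 33.3% after control siRNA. With the union of exons as length, the share of Mmp12 was 11.4%, 15.6% and 13.8% after Ep300 siRNA, against 26.0%, 27.2% and 22.1% after control siRNA, so those groups did not overlap by either length. Shares are linked to each other, since a lower Mmp12 raises the share of the rest. Mmp12 was chosen for its fall, so the shares are given as a description.

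The sum of MMP transcripts per kb was 12.7, 11.3 and 12.3 after Ep300 siRNA, against 18.6, 18.8 and 17.8 after control siRNA. The sum of TIMP transcripts, of which Timp2 made up at least 94.1% in every library, was 4.95, 3.04 and 4.10 after Ep300 siRNA, against 4.85, 4.42 and 4.42 after control siRNA. The MMP sum was lower in every Ep300 siRNA library and the TIMP sum overlapped. Mmp12 and Mmp9 were chosen for their falls and are part of the MMP sum. That sum and the ratios below that hold either gene carry this choice and are given as a description. MMP over TIMP was 2.56, 3.72 and 3.0 after Ep300 siRNA, against 3.84, 4.25 and 4.03 after control siRNA. With the union of exons these ratios overlapped, at 2.26, 3.16 and 2.59 after Ep300 siRNA and 3.05, 3.33 and 3.27 after control siRNA. Ratios within a library do not depend on how libraries are scaled. The ratio of raw Mmp12 to Timp2 reads was 0.494, 0.955 and 0.674 after Ep300 siRNA, against 1.55, 1.74 and 1.43 after control siRNA. That of Mmp12 to Mmp19 reads was 0.558, 0.897 and 0.712 after Ep300 siRNA, against 1.35, 1.41 and 1.09 after control siRNA. That of Mmp9 to Mmp12 reads overlapped, at 0.172, 0.134 and 0.134 after Ep300 siRNA and 0.0916, 0.117 and 0.196 after control siRNA.

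**Figure D4:**
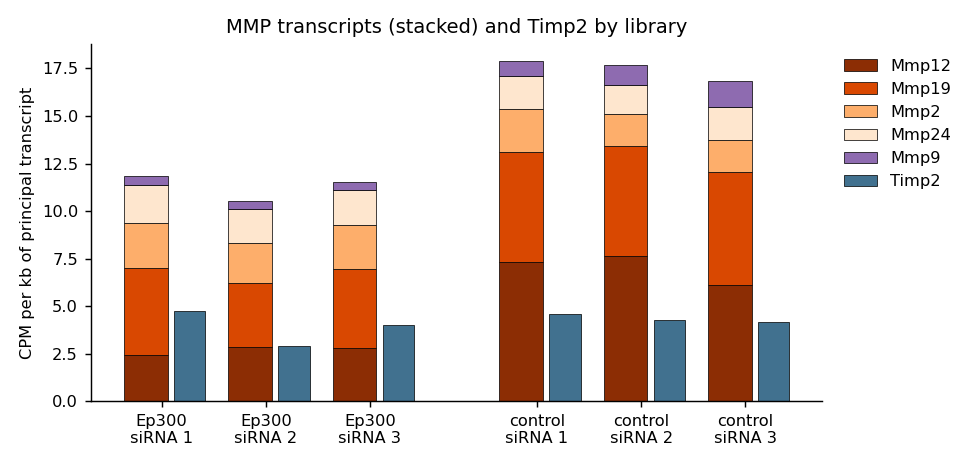
CPM per kb of principal transcript (vertical axis) in each library, Ep300 siRNA at left and control siRNA at right; the stacked bars hold Mmp12, Mmp19, Mmp2, Mmp24 and Mmp9, and the blue bar is Timp2. The Mmp12 segment runs from 2.42 to 2.86 in the Ep300 siRNA libraries and from 6.11 to 7.64 in the control libraries, while the Timp2 bars of the groups overlap.

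Genes that activate or clear MMPs were followed next. Plau, the urokinase protease that turns plasminogen into plasmin, an activator of several proMMPs, was at 306.9, 302.0 and 324.9 CPM after Ep300 siRNA, against 456.4, 455.6 and 429.5 CPM after control siRNA. All 3 Ep300 siRNA libraries lay below the 3 controls, as they did for 14.4% of all genes tested. Plau fell to 0.696 of the level in controls (edgeR adjusted p = 0.000878; log2 fold change −0.52 ± 0.06, SE). It was the only gene of this list past the threshold among 12 tested of 19, with a list median log2 fold change of −0.01. At an unadjusted p under 0.05 there were 3 higher and 3 lower genes, and DESeq2 called 1 higher and 1 lower gene and limma-voom 1 lower gene. Plaur, the receptor that holds urokinase at the cell surface, had a log2 fold change of −0.02 ± 0.07 (SE, 95% interval −0.17 to 0.12). Plat, the tissue plasminogen activator, was low at 0.331 ± 0.0877 CPM after Ep300 siRNA and 0.816 ± 0.218 CPM after control siRNA (SD, n = 3 each, edgeR adjusted p = 0.056). Pcsk7, named here after its values were seen, was higher without passing (edgeR adjusted p = 0.0548). It was at 63.98 ± 1.51 CPM after Ep300 siRNA and 53.96 ± 4.42 CPM after control siRNA (SD, n = 3 each). Furin, also named after its values were seen, was lower without passing (log2 fold change −0.21 ± 0.07, SE; edgeR adjusted p = 0.103). Bsg, a surface glycoprotein known to induce MMPs, had a log2 fold change of 0.20 ± 0.08 (SE; edgeR adjusted p = 0.166), and Lrp1, an endocytic receptor that clears MMP and TIMP complexes, had one of 0.22 ± 0.09 (SE; edgeR adjusted p = 0.176). Reck, a membrane inhibitor of MMPs, and A2m, a protease inhibitor of plasma, were too low to test.

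Of 17 ADAM family proteases and regulators, 10 were tested. By edgeR's adjusted p 0 passed. DESeq2 called 1 higher and 1 lower gene, limma-voom called 0, and 2 genes were under 0.05 by edgeR without adjustment. Adam17, which sheds Tnf, had a log2 fold change of −0.01 ± 0.07 (SE, 95% interval −0.17 to 0.14). Adamts1, a secreted protease of the matrix, had the smallest p, at 8.31 ± 0.752 CPM after Ep300 siRNA and 10.7 ± 0.492 CPM after control siRNA (SD, n = 3 each; edgeR adjusted p = 0.0569). The list's median was 0.06.

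Of 9 cysteine cathepsins and cystatins, 8 were tested, and by edgeR 2 fell and 2 rose (median log2 fold change −0.05). DESeq2 and limma-voom each called 3 higher and 2 lower genes. Ctsb, named here after its values were seen, was higher without passing (log2 fold change 0.275 ± 0.076, SE, edgeR adjusted p = 0.0526). It was past the threshold in 7 of 14 other settings. Ctsk, the cathepsin with which osteoclasts cut collagen, fell to 0.696 of its control level (34.6, 26.1 and 32.6 CPM after Ep300 siRNA, against 42.7, 39.5 and 51.9 CPM after control siRNA; edgeR adjusted p = 0.0203). Cst7, or cystatin F, an inhibitor of cathepsins, fell to 0.492 (log2 fold change −1.02 ± 0.16, SE; edgeR adjusted p = 0.00362). The lysosomal proteases Ctsl and Lgmn rose 1.24-fold (edgeR adjusted p = 0.0244) and 1.23-fold (edgeR adjusted p = 0.0192). Both rises lost the call when replicate 1 or 3 of Ep300 siRNA, or replicate 2 or 3 of control siRNA, was left out. The fall of Ctsk lost it without replicate 2 of Ep300 siRNA or replicate 3 of control siRNA. Ctsk, like Mmp9, was highest in control siRNA replicate 3.

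Osteoclast genes are given beside Mmp9, which osteoclasts also make. The 6 osteoclast markers summed to 193 to 215 CPM after Ep300 siRNA and 291 to 305 CPM after control siRNA, with none at 0 in all libraries. Atp6v0d2 made up most of each sum (165.2 ± 13.45 CPM after Ep300 siRNA and 250.9 ± 3.13 CPM after control siRNA, SD, n = 3 each). The sums therefore mainly follow this 1 gene. Of the 6 markers, 4 were tested. Each of these was highest in control siRNA replicate 3, as Mmp9 and Ctsk were. In that library Acp5 was at 10.95 CPM, against 8.14 and 8.31 CPM in control siRNA replicates 1 and 2. Atp6v0d2 was at 254.5 CPM there, against 248.8 and 249.4 CPM. Acp5, the tartrate-resistant acid phosphatase, fell to 0.468 of its control level (edgeR adjusted p = 0.00756), and Atp6v0d2, a subunit of the vacuolar proton pump, fell to 0.659 (edgeR adjusted p = 0.000661). Both calls held in all 14 other settings. Dcstamp, needed for cell fusion, was at 31.1 ± 1.03 CPM after Ep300 siRNA and 36.04 ± 2.53 CPM after control siRNA (SD, n = 3 each; edgeR adjusted p = 0.0994), and Ocstamp, which has the same role, was not past the threshold (edgeR adjusted p = 0.251). Calcr and Oscar were too low to test. The part of such genes in the difference of Mmp9 was not tested.

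Genes of matrix proteins that MMPs cut were mostly too low to test. Of 13 such genes 4 were tested, and 0 passed by edgeR, DESeq2 or limma-voom, with 0 under 0.05 before adjustment. Spp1, osteopontin, which Mmp9 and other MMPs cut, was abundant at 9154, 10010 and 11450 CPM after Ep300 siRNA and 9880, 11860 and 10850 CPM after control siRNA. Its log2 fold change was −0.09 ± 0.10 (SE, 95% interval −0.31 to 0.12). Vcan, the proteoglycan versican, had the smallest p of the list, at 0.782 ± 0.0030 CPM after Ep300 siRNA and 0.494 ± 0.121 CPM after control siRNA (SD, n = 3 each; edgeR adjusted p = 0.251). Eln, which encodes elastin, the substrate that gives Mmp12 its name, was too low to test.

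AP-1 and ETS factors bind promoters of many MMP genes. Of 13 such genes 12 were tested; 4 fell and 0 rose, also by DESeq2 and limma-voom. Jund, an AP-1 subunit named here after its values were seen, was the 1 gene higher at an unadjusted p under 0.05 and had the largest difference of the list. It was at 32.6, 23.1 and 17.4 CPM after Ep300 siRNA, against 19.7, 11.7 and 15.7 CPM after control siRNA, and the groups overlapped. Its log2 fold change of 0.62 ± 0.21 (SE; 95% interval 0.16 to 1.09) had an edgeR adjusted p of 0.106, and it was past the threshold in 4 of 14 other settings (adjusted p 1.77e-08 to 0.29 over them). The list's median log2 fold change was −0.09. Jun was at 90.8, 100.6 and 102.0 CPM after Ep300 siRNA, against 129.5, 135.6 and 130.5 CPM after control siRNA, and fell to 0.742 of its control level (edgeR adjusted p = 0.00257). Fosl2 fell to 0.731 (edgeR adjusted p = 0.00756), Fos to 0.685 (edgeR adjusted p = 0.0135) and Ets2 to 0.825 (edgeR adjusted p = 0.0186). Fos lost its call without control siRNA replicate 3, and Ets2 without replicate 1 or 2 of Ep300 siRNA or replicate 2 or 3 of control siRNA. Junb and Fosl1, other AP-1 subunits, had log2 fold changes of −0.03 ± 0.06 and −0.15 ± 0.08 (SE) without passing. Spi1, the ETS factor central to the myeloid lineage, had one of 0.03 ± 0.06 (SE).

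**Figure D5:**
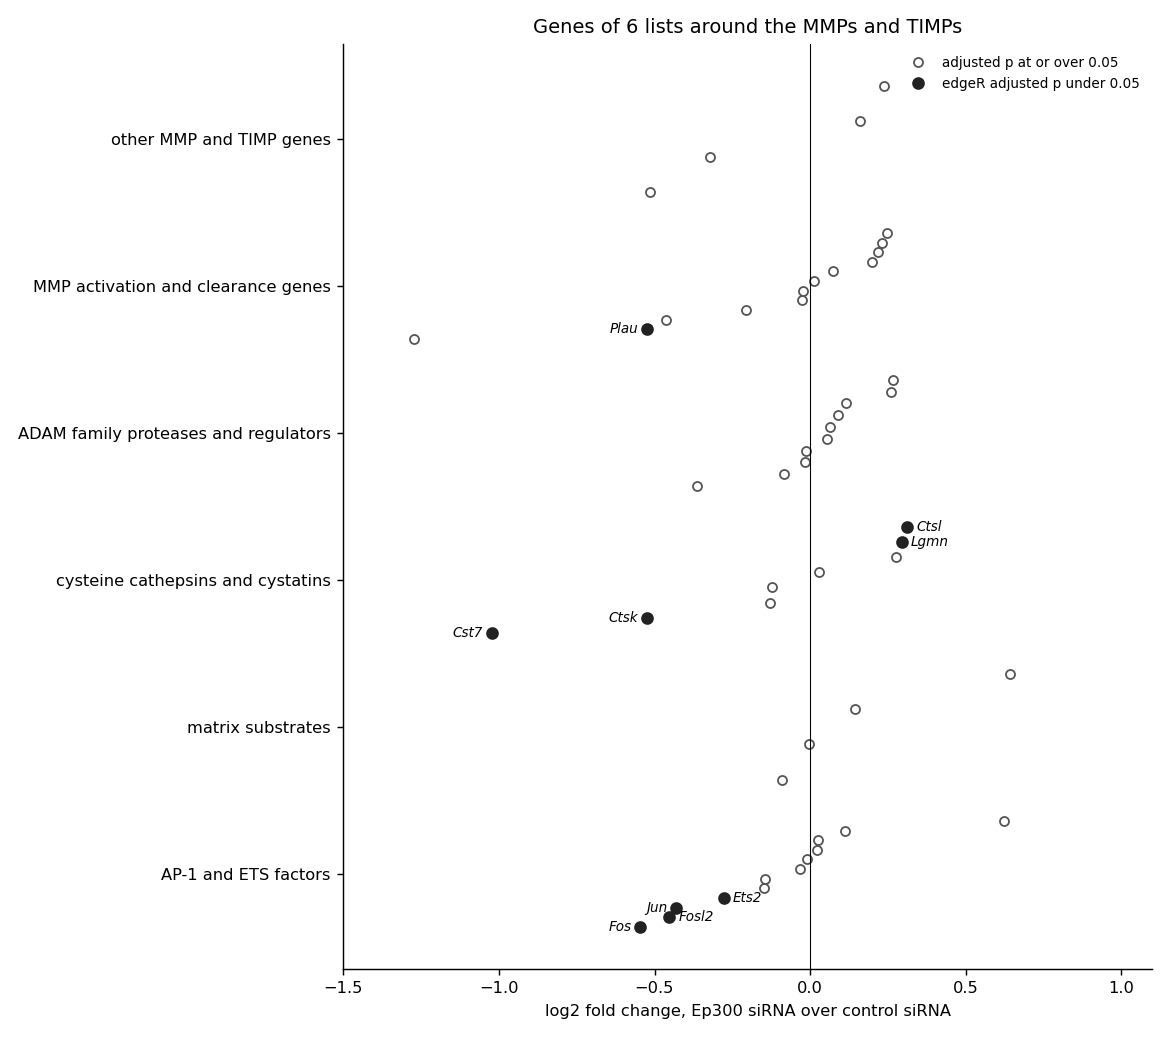
Log2 fold changes (horizontal axis, Ep300 siRNA over control siRNA) of 50 genes in 6 lists (rows); filled points passed edgeR's adjusted p under 0.05 and are named, and open points did not. Of the 9 filled points, 7 lie left of 0 and 2 lie right.

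Over these 6 lists 50 genes were tested and 9 passed, 7 lower and 2 higher. Of all genes tested 6.78% passed, 4.02% lower and 2.76% higher. The lists were chosen with earlier results of these data known, so nothing is read from this count. The count was 4, all lower, without control siRNA replicate 3.

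By likeness of profile, each gene was compared with those of at least 5 CPM by the root mean square difference of log2 CPM, centred on the control mean, over 6 libraries. Nearest to Mmp12 were Cct6a (0.153), Strap (0.173) and Clec4a2 (0.222). Nearest to Mmp9 were Car2 (0.231), Ep300 itself (0.247) and Itgb7 (0.251). The measure holds the difference between the groups, so it selects genes that were lower by a similar amount.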

How the data were processed

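The deposited table holds raw counts per gene symbol for 6 libraries. The submitters' processing notes name GRCm38 as the build and, as tools, featureCounts, STAR 2.5.3a, fastp 0.23.4 and edgeR 3.12.1, and per the labels the library kit was a stranded mRNA kit. Whether the authors counted by strand, how they treated reads with several positions or copies, and which annotation they used, no source used here states. Of counts from 1 to 4, 79.8% to 80.9% were even, so a fit on halved counts was added after the data were seen. PCR copies are not independent molecules, so intervals cover only the spread of libraries.

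All rows were fitted with edgeR 4.0.16 (R 4.3.3): filterByExpr, TMM, quasi-likelihood F-test, no covariate, two-sided p adjusted by Benjamini-Hochberg over 15741 genes. Standard errors come from the fold change and F. CPM uses TMM-scaled library sizes. Gene positions and lengths are from GENCODE M21 and promoters from RefSeq. Alternatives were other scalings and filters, DESeq2 1.42.0, limma-voom (limma 3.58.1), the replicate block and leaving out each library. Libraries of a group differed by more than sampling noise (chi-square over its degrees of freedom 9.24 to 32.3).

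Genes and lists were chosen with earlier results of these data known. Named genes are the 9 genes, their overlapping and cluster neighbours, MMP genes past the filter and the nearest profiles. From the lists they are the genes with the smallest p (up to 3 more past the threshold). Other list genes were named after their values were seen, for their role or, as with Jund, Pcsk7, Furin and Ctsb, for those values.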

Additional observations from a re-analysis of the deposited data

How the results depend on the processing

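The log2 fold changes of Mmp12 and Mmp9, given as a description since the genes were chosen on them, were −1.47 to −1.30 and −1.42 to −0.99 with 1 library left out, and −1.41 to −1.37 and −1.26 to −1.16 under the other alternatives. Mmp19 stayed between −0.62 and −0.41. With 1 library left out, Timp2 ran from −0.311 to 0.018, reversed without Ep300 siRNA replicate 2, and Mmp23 from −1.05 to 0.006, reversed without Ep300 siRNA replicate 1. With no filter on low counts, 1721 of 30207 genes changed, and 16 genes of the 6 lists (other MMPs and TIMPs, activators, ADAM proteases, cathepsins, matrix substrates and AP-1 or ETS factors) passed, against 9. The 7 list genes gained had all been tested with the filter too, and the cause was not tested. With 1 library left out, 490 to 1054 genes changed, and 4 to 13 of the 6 lists, with fewer samples in each fit. Library sizes alone gave 316 higher and 788 lower genes, against 435 and 633. With the replicate number as a block, 14 genes of the 6 lists passed, 6 higher and 8 lower, and 1357 genes in all. Same-numbered libraries did not deviate together (correlations of 0.087, 0.02 and −0.047), so the numbers were not taken as pairs. The 5 genes under the filter could be fitted only without it and have no other value. At their counts, under 10 reads a library, depth limits any statement on them.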
